A study of Homo sapiens with 6 samples.

Results

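Chromosome 11 carries 605 of the 26515 array rows with a single gene symbol once 2 conditions are set: the file places the row on that chromosome, and its mean over the 6 arrays is at least 5.5 on the log2 intensity scale. These rows are called the members here, 199 of them on the short arm (start below 53 Mb, GRCh37) and 406 on the long arm. The mean level chose the members, so the level itself is not a result. Of the 1525 chromosome 11 rows with 1 symbol, 920 lay below it, and of 179 rows named as olfactory receptors 2 passed. Just outside the threshold were DAGLA and ACP2, both with a mean of 5.49, and just inside CSKMT and FAM86C2P, both at 5.51. Of the members, 601 are the brightest row of their gene and were tested, 197 on the short arm and 404 on the long arm, and 541 of these 601 are coding in the file. The other 4 are second rows of CD44, PGAP2, MSANTD4 and ARHGAP42. RefSeq lists 594 of the 601 symbols, and all 594 stand on chromosome 11 there.

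The samples come from the human bladder cancer line T24 and from T24/THP, a derivative that was made resistant to pirarubicin, with 3 arrays of independent RNA samples for each line. Pirarubicin is an anthracycline, a drug that intercalates into DNA and poisons topoisomerase II. T24/THP was raised by repeated exposures of 24 h, each followed by recovery in drug-free medium, with the dose stepped up from 5 ng/ml to 1000 ng/ml in a course that took more than 6 months, and the drug was given again every 2 to 3 weeks. The parental T24 was kept in culture alongside, without the drug, and the design asks which transcripts differ between the sensitive and the resistant line. T24/THP was derived once, so the p-values reflect variation among samples of 2 cultures, with no second selection to compare. How long before RNA extraction the drug was last given is not stated. Whole-transcript arrays were used, whose precision is limited by the number of arrays. Of the markers looked at, all 10 of urothelial differentiation lay within the background range of each line, as did 3 of 6 epithelial, 4 of 5 leukocyte and 3 of 4 endothelial markers. KRT7, KRT8 and KRT18 were bright in both lines. So was the endothelial marker CDH5, at 12.30 in T24 and 13.12 in T24/THP, a difference of 0.82 that was not called. Of the 4 mesenchymal markers VIM rose by 3.51 log2 units in T24/THP, while ZEB1 at 0.07, FN1 at -0.38 and CDH2 at -0.59 were not called. CD68 of the leukocyte markers was called higher, by 1.12. These were the 2 calls among the markers looked at.

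Chromosome 11 is a gene-rich chromosome on which genes of one kind often lie side by side. The tip of the short arm holds the interferon-induced IFITM genes, HRAS and an imprinted cluster, followed by globin, olfactory receptor and TRIM genes, and CD44 lies farther in. The long arm holds CCND1 and other genes that are amplified together in carcinomas, the matrix metalloproteinase and inflammatory caspase clusters, YAP1 with BIRC2 and BIRC3, and the DNA damage kinase genes ATM and CHEK1. Genes for DNA replication are spread over both arms, and their transcription in late G1 depends largely on E2F factors. Interferon-stimulated genes are transcribed through a short element in their promoters to which STAT and IRF proteins bind.

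Promoters of 5 members stand here. They belong to interferon-stimulated genes that rose or to replication, mitosis and repair genes that fell, and within these groups they were picked because they hold a motif match. Each sequence is the 250 bases before a RefSeq start (GRCh38.p14, read 5′ to 3′ on the gene's own strand), and capitals mark a motif. The interferon motif searched was GAAANNGAAA, and the E2F motifs were TTTCCCGC, TTTCGCGC, TTTGCCGC and TTTGGCGC, each on both strands.
IFITM1 (chr11:313790-314039, plus strand): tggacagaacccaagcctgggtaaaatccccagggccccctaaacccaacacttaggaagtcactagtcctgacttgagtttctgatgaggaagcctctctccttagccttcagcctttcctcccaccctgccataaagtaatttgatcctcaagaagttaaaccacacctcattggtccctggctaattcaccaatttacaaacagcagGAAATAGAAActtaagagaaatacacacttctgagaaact
TRIM34 (chr11:5624751-5625000, plus strand): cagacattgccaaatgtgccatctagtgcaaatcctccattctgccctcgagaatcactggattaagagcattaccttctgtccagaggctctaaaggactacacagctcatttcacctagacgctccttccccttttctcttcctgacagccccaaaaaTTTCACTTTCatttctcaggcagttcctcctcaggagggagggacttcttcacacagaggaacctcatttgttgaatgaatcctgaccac
TRIM5 (chr11:5685075-5685324, minus strand): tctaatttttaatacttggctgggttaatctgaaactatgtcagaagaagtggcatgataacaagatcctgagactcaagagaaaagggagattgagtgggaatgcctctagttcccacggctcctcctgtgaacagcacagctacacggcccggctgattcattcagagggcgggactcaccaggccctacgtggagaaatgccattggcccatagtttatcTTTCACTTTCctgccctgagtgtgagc
POLA2 (chr11:65261712-65261961, plus strand): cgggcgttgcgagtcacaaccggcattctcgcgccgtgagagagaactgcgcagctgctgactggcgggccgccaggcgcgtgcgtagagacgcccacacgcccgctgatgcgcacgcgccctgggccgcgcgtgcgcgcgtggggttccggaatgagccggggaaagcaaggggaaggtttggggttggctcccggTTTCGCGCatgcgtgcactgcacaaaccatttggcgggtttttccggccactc
CDCA5 (chr11:65084041-65084290, minus strand): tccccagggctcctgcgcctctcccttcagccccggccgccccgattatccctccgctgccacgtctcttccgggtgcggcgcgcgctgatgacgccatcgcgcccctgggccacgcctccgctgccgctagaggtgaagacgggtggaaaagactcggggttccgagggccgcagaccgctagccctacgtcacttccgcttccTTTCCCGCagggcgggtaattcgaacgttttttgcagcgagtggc
The match starts 40 bases before the start of IFITM1, 90 before that of TRIM34, 27 before that of TRIM5, 53 before that of POLA2 and 45 before that of CDCA5. TRIM34 has a second start in the table, whose promoter held no match. The promoter table held 462 of the 601 members. The interferon motif occurred in 3.71% of all 27305 genes with a promoter, in 4.11% of the members, and in IFITM1, TRIM34 and TRIM5 of the 5 interferon-stimulated members that rose and have a promoter in the table. An E2F motif occurred in 3.40% of all genes, in 6.06% of the members, and in POLA2 and CDCA5 of 14 replication, mitosis and repair members that fell and have one. A match is a description of the letters and not a measured site.

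The members stood lower in T24/THP than in T24 along nearly the whole chromosome. Their median difference, T24/THP minus T24 throughout, was -0.42 log2 units (quartiles -0.79 and -0.08), and 473 of the 601 lay below 0. The median was -0.41 on the short arm, with 146 of 197 members below 0, and -0.42 on the long arm, with 327 of 404 below 0. The arms differed by -0.02 log2 units in the values as deposited. The spread between replicate arrays does not measure the uncertainty of this gap, since both arms share shifts of whole arrays. The gap depended on the setting. The short and long arm medians were -0.31 and -0.38 after quantile normalization, -0.30 and -0.37 with the level-dependent trend removed, and -0.23 and -0.38 with a level threshold of 4.5. Over all 10174 genes with a mean of at least 5.5 the median was -0.09, and over the 9573 of them on other chromosomes -0.07. Each array reads RNA from a whole culture, so a lower level in every cell and a loss in some of the cells cannot be told apart. Since the chromosome was chosen with such values known, no test was made over the members as a set.

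The shift was present on each array. Relative to a gene's mean over the 6 arrays, the short arm members had median deviations of 0.13, 0.19 and 0.23 in T24 and of -0.18, -0.17 and -0.23 in T24/THP. The long arm members had 0.16, 0.23 and 0.28 in T24 and -0.22, -0.17 and -0.27 in T24/THP. The lines did not overlap on either arm. A gene's deviations balance over the 6 arrays, so the opposite signs of the lines are not separate observations. The SD between replicate arrays was 0.0431 on the short arm and 0.0543 on the long arm. Genes with a mean of at least 5.5 on other chromosomes had deviations from -0.02 to 0.08 in T24 and from -0.04 to -0.01 in T24/THP.

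**Figure D1:**
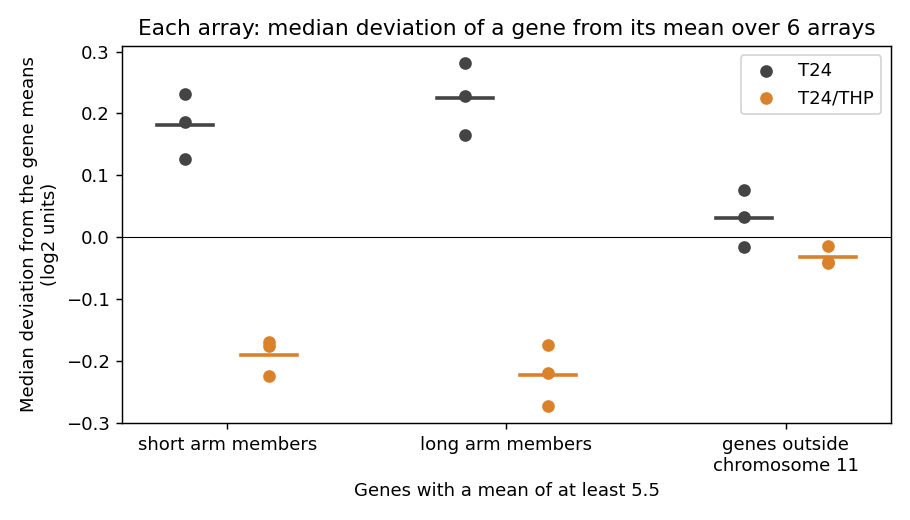
Median deviation of genes from their own mean over the 6 arrays (log2 units, vertical axis) for short arm members, long arm members and genes outside chromosome 11, all with a mean of at least 5.5. Each point is an array and each bar the mean of a line's 3 arrays; on both arms the T24 arrays lie at 0.13 to 0.28 and the T24/THP arrays at -0.27 to -0.17.

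A gene was called when limma's adjusted p, over all 24930 genes, was under 0.05 and the lines differed by at least 2-fold. By that rule 23 members were higher (3.83%) and 108 lower (18.0%) in T24/THP. Over all genes 2.85% were higher and 3.77% lower. Over genes with a mean of at least 5.5, the background at the members' threshold, 6.09% were higher and 8.77% lower. They share the threshold and not the level, with a median level of 7.97 against 8.43 for the members. Below, they are meant by genes at that level. The short arm had 13 members higher (6.60%) and 35 lower (17.8%), and the long arm 10 higher (2.48%) and 73 lower (18.1%). With a level-dependent trend between the arrays removed, 28 members were higher and 87 lower, and the short arm split was 16 higher and 26 lower. After quantile normalization 28 members were higher and 93 lower, and with an offset of 32 these were 19 and 86. At an adjusted p under 0.05 and any size, 66 of the 601 members were higher and 375 lower (62.4%), against 26.1% and 37.3% of the genes at that level. When limma tested against a 2-fold difference itself, 14 were higher and 50 lower, against a background of 3.16% and 3.65%.

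The lower values were spread along the chromosome. Counting from the short-arm end in 5 Mb steps, 26 stretches held at least 5 members, each of the 26 had a median below 0, and 25 lay below the median of genes at that level. The lowest medians were -0.82 at 40 to 45 Mb (6 members), -0.75 at 15 to 20 Mb (21 members, 7 of them lower) and -0.74 at 125 to 130 Mb (17 members, 6 lower). The highest were -0.03 at 20 to 25 Mb (6 members), which turned to 0.04 after quantile normalization and to 0.05 with the level-dependent trend removed, -0.17 at 85 to 90 Mb (12 members) and -0.19 at 80 to 85 Mb (9 members). On the long arm 20 adjacent members from FTH1 to TMEM223 were all below 0, as were 19 from CCDC15 to PRDM10 and 18 from POLD3 to CLNS1A, with medians of -0.39, -0.83 and -0.63. The longest run above 0 had 7 members on the short arm, from RRM1-AS1 to FHIP1B around the TRIM genes, with a median of 1.13. Members on the plus strand (308) and on the minus strand (293) had the same median of -0.42.

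**Figure D2:**
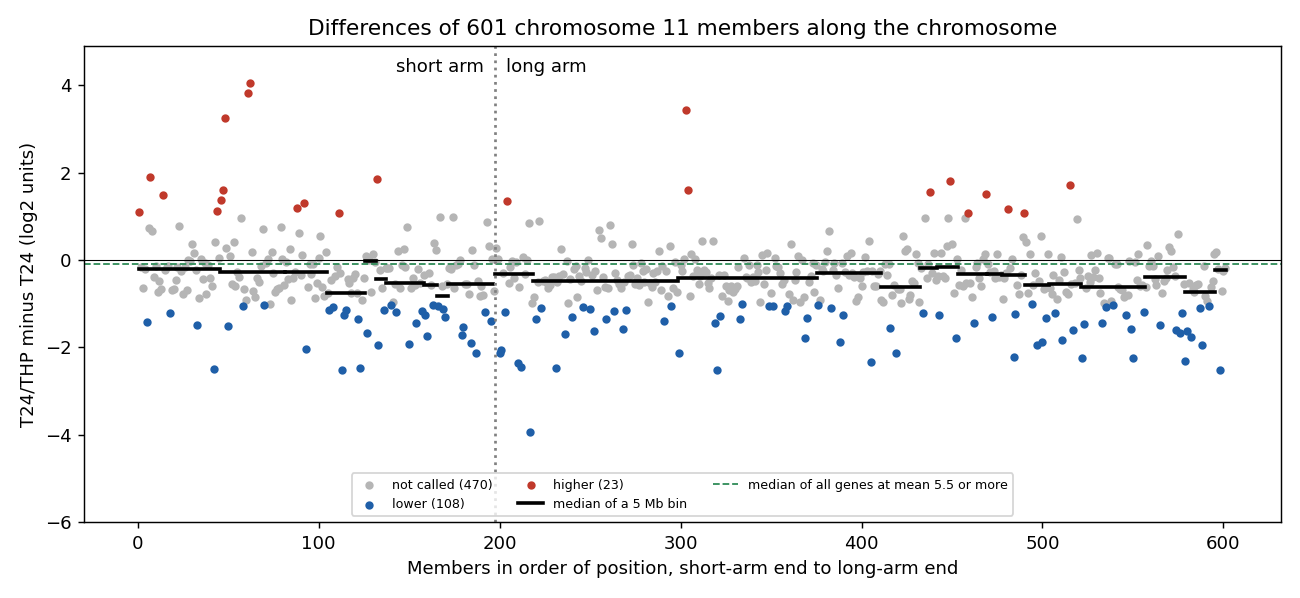
Difference between the lines (T24/THP minus T24, log2 units) of the 601 tested members in order of position, with the arms divided by a dotted line. Red and blue points are the 23 members called higher and the 108 called lower, black bars the medians of 5 Mb stretches with at least 5 members, and the dashed line the median of all genes with a mean of at least 5.5; in the values as deposited the bars stay below 0 from end to end.

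The shift was larger among brighter members. From 5.5 to 8 the median difference was -0.23 on the short arm and -0.38 on the long arm, against -0.03 for genes of that level on other chromosomes. From 8 to 11 it was -0.42 and -0.52, against -0.09, and above 11 it was -0.53 and -0.59, against -0.13. Among members above 11, 11 of 44 on the short arm and 15 of 61 on the long arm were called lower, against 134 of 1289 genes elsewhere. Rows that the rule leaves out were summarised in the same way. Chromosome 11 rows with no symbol and a mean of at least 5.5 had a median of 0.12 on the short arm (n = 120) and -0.09 on the long arm (n = 198), against 0.17 for such rows on other chromosomes (n = 5495). Genes of chromosome 11 below the level threshold had medians of 0.03 on the short arm and 0.01 on the long arm, against 0.02 elsewhere.

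Chromosome 11 had the lowest median of the 23 chromosomes compared, ahead of X with -0.37 and 21 with -0.30. The short arm of chromosome 17 had a like value of -0.41 over 169 genes, 5 of them higher and 28 lower. The short arm of chromosome 12 stood at 0.07 over 139 genes, and chromosome 14 beyond 50 Mb at 0.44 over 235 genes, with 47 higher and 2 lower. These are medians of chosen regions set side by side, with no test between them.

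**Figure D3:**
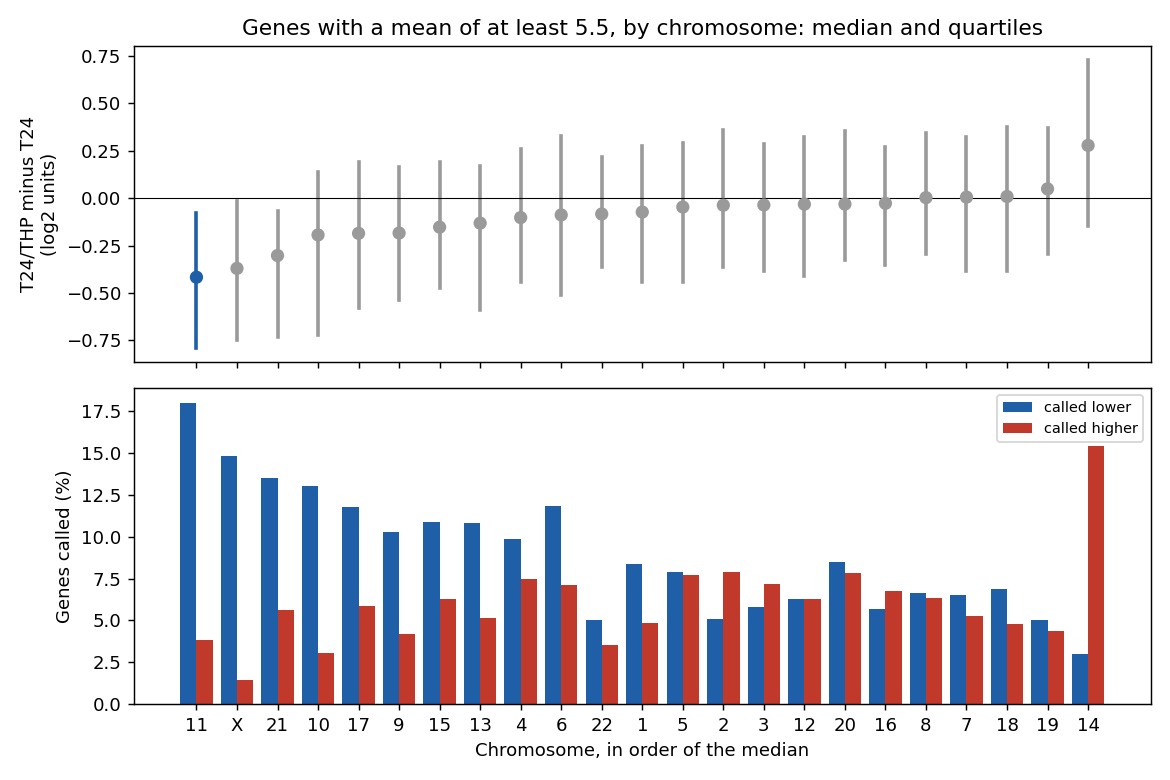
Genes with a mean of at least 5.5 by chromosome, in order of the median difference (T24/THP minus T24). The upper panel gives medians and quartiles in log2 units, the lower panel the percentage called lower (blue) and higher (red); chromosome 11 is first, with a median of -0.42 and 18.0% lower.

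Near the tip of the short arm the interferon-induced genes IFITM1 and IRF7 rose. IFITM1, a membrane protein that hinders virus entry, read 14.20, 14.08 and 13.98 in T24 and 15.89, 16.02 and 16.01 in T24/THP, and its T24/THP arrays were all above its T24 arrays. It rose 3.71-fold (log2 difference 1.89, SE 0.08, adjusted p = 3.44e-06, n = 3 and 3). IFITM2 and IFITM3, on either side of it, differed by 0.73 and 0.67 and were not called. The 3 genes are close paralogs whose probes may read each other, so their separate values are uncertain. IRF7, a transcription factor of the type I interferon response, read 6.08, 5.86 and 5.96 in T24 and 7.33, 7.54 and 7.51 in T24/THP, with no overlap, and rose 2.82-fold (adjusted p = 1.33e-05). HRAS, the RAS GTPase gene that lies between the IFITM genes and IRF7, differed by -0.48 and was not called.

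PSMD13 and PHLDA2, near the same tip, fell. PSMD13, a subunit of the proteasome lid, fell 2.66-fold, from 13.29 ± 0.13 in T24 to 11.88 ± 0.19 in T24/THP (SD, n = 3 each). PHLDA2, an imprinted gene that restrains placental growth, fell 2.82-fold, from 9.41 ± 0.43 in T24 to 7.92 ± 0.12 in T24/THP (SD, n = 3 each). Of the imprinted cluster and its neighbours at 11p15.5, 11 genes were measured and 3 were members, and besides PHLDA2 neither NAP1L4 (-0.87) nor CD81 (-0.23) was called.

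RRM1, the large subunit of ribonucleotide reductase, which makes deoxynucleotides for DNA synthesis, fell the most among replication genes of the short arm. Its arrays read 13.66, 13.96 and 13.63 in T24 and 11.32, 11.32 and 11.14 in T24/THP, so the lines were far apart (chromosome 11 at 4115924 to 4223885, GRCh37). The fall was 5.62-fold (log2 difference -2.49, SE 0.10, adjusted p = 3.66e-06). Within the next 2 Mb the direction turned. TRIM21, an antibody receptor and ubiquitin ligase of the cytosol, read 9.57, 9.52 and 9.94 in T24 and 10.77, 10.94 and 10.71 in T24/THP, and rose 2.19-fold. TRIM34, a relative of TRIM5, rose 2.58-fold. TRIM5, which blocks retroviral capsids, read 7.41, 7.36 and 7.49 in T24 and 9.02, 8.99 and 9.05 in T24/THP, and rose 3.02-fold (adjusted p = 2.46e-06). Neither TRIM34 nor TRIM5 had overlapping groups. The TRIM5 row spans 275425 bases, whereas RefSeq gives the TRIM5 gene 96440 bases, so the row may not read TRIM5 alone.

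The row that the file names OR56B1, after an olfactory receptor, rose 9.47-fold, reading 7.61, 7.45 and 7.31 in T24 and 10.49, 10.72 and 10.89 in T24/THP. It spans 110943 bases (chromosome 11 at 5710817 to 5821759), whereas RefSeq gives the OR56B1 gene 2076 bases. In RefSeq the interferon-induced gene TRIM22 lies between TRIM34 and OR56B1. TRIM22 is not analysed here under its own name, and signals of the 2 genes in this row cannot be told apart.

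Transcripts at background level in T24 were detected in T24/THP in a stretch of 217171 bases from OVCH2 to LOC283299 (chromosome 11 at 7710669 to 7927839), where other rows were looked at after these values were seen. OVCH2, which encodes an ovochymase-like protease, read 4.03, 3.46 and 3.50 in T24 and 7.73, 7.51 and 7.19 in T24/THP, and LOC283299, a noncoding locus, read 3.78, 3.57 and 4.06 in T24 and 8.27, 7.86 and 7.41 in T24/THP. Both were within the background range in T24 and clear of it in T24/THP. They passed the level threshold only through their T24/THP arrays, so a high level in that line was a condition of their being members. The rises were at least 3.84-fold and at least 4.96-fold, counted from the background bound of T24 (5.54). In T24/THP 4 of the 8 rows on the minus strand had a mean above the background bound of that line (5.51), OVCH2, LOC283299, the row named for the olfactory receptor OR5P2 and a row without a symbol, against 0 of 5 rows on the plus strand. In T24 none of these 13 rows did. Most of these rows are not members, and the counts are a description of the locus.

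Of the remaining short arm, MICAL2, an enzyme that oxidises actin filaments, fell 4.10-fold, from 14.27 ± 0.02 in T24 to 12.24 ± 0.21 in T24/THP (SD, n = 3 each). Its neighbour DKK3, a secreted protein of the Dickkopf family, went the other way and rose 2.46-fold, from 9.75 ± 0.06 in T24 to 11.05 ± 0.11 in T24/THP (SD, n = 3 each). At 18 to 19 Mb, SAAL1 read 9.90, 10.19 and 10.23 in T24 and 7.70, 7.62 and 7.44 in T24/THP, the widest fall of the arm at 5.74-fold (adjusted p = 4.26e-06). The serum amyloid genes beside it, SAA1 and SAA2, acute-phase proteins with near-identical sequences that the probes may not separate, differed by -1.14 and -1.26 and were called. LDHA, lactate dehydrogenase A, in the same stretch, differed by -0.75 and was not called. E2F8, a repressor among the E2F factors that is itself made in S phase, fell 5.52-fold, reading 9.11, 9.68 and 9.34 in T24 and 7.02, 6.89 and 6.83 in T24/THP. SLC5A12, a sodium-coupled lactate carrier known from the kidney, was in the background range in T24 and rose at least 2.29-fold to 6.73 ± 0.05 (SD, n = 3). This gene passed the level threshold only through T24/THP. CCDC34 fell 3.82-fold.

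Around CD44 at 11p13, 28 listed genes were measured, 19 were members, 0 rose and 6 fell, at a median difference of -0.57. Over the whole short arm 6.60% of members were higher and 17.8% lower, at a median of -0.41. CD44, the hyaluronan receptor of many carcinoma cells, read 14.21, 14.21 and 14.03 in T24 and 12.95, 12.98 and 12.71 in T24/THP, without overlap, and fell 2.41-fold (adjusted p = 3.62e-05). Its second row, a short one inside the gene, differed by -0.60 and was not called, so the rows differed in the same direction and not by the same size. KIAA1549L fell 3.79-fold, and FJX1, a secreted kinase-like protein of the four-jointed family, 3.36-fold. NAT10, which acetylates cytidine in RNA, differed by -1.44 and was called. CAT, the catalase gene, differed by -0.53 and was not called. Nearer the centromere, PSMC3, an ATPase of the proteasome base, read 11.49, 11.96 and 11.99 in T24 and 9.75, 9.79 and 9.49 in T24/THP, and fell 4.39-fold. DDB2, which recognises ultraviolet lesions in DNA and is a p53 target, fell 3.73-fold.

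On the long arm the first 10 Mb held 4 of its 6 widest falls. LPXN, leupaxin, an adaptor of focal adhesions, went from 9.01 ± 0.01 in T24 to 6.66 ± 0.03 in T24/THP (SD, n = 3 each). It fell 5.11-fold (SE 0.05, adjusted p = 3.10e-07). FAM111B, a protease linked to DNA replication, read 8.68, 9.55 and 9.71 in T24 and 6.98, 6.93 and 6.70 in T24/THP, and fell 5.44-fold, with T24 replicate 1 below the other T24 arrays. FEN1, the flap endonuclease that trims Okazaki fragments, read 10.53, 11.14 and 11.06 in T24 and 8.43, 8.75 and 8.15 in T24/THP, and fell 5.52-fold. FABP5P7 read 13.67, 14.06 and 13.72 in T24 and 9.79, 10.16 and 9.72 in T24/THP, and fell 15.2-fold, the largest fall of all members. It is a processed pseudogene of the fatty acid binding protein gene FABP5, and its probes may read the parent gene, which is not a member. UBE2L6, the conjugating enzyme of the ubiquitin-like protein ISG15, rose 2.54-fold in the same stretch, reading 8.37, 8.27 and 8.62 in T24 and 9.64, 9.91 and 9.76 in T24/THP.

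**Figure D4:**
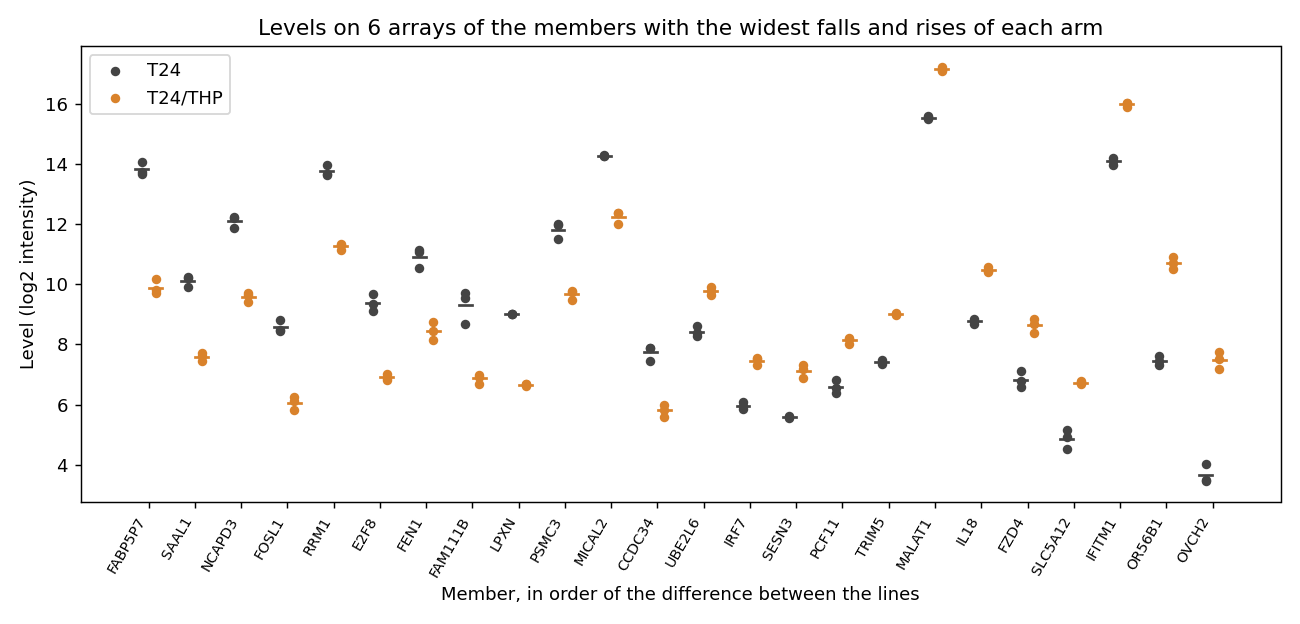
Levels (log2 intensity) on the 6 arrays of the 24 members with the widest falls and rises of the 2 arms, 6 in each direction per arm, loci without a gene name and small RNAs left out, in order of the difference. Each point is an array and each bar a line's mean over 3 arrays. That the T24 and T24/THP arrays do not overlap was a condition of the choice, met by 492 of the 601 tested members. OVCH2 and SLC5A12 are in the background range in T24.

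A pair of neighbouring noncoding loci at 65 Mb rose. The row that the file names MIR612 read 7.97, 7.82 and 7.85 in T24 and 11.34, 10.81 and 11.78 in T24/THP, and rose 10.8-fold, with T24/THP arrays further apart than its T24 arrays. This row spans 22743 bases (chromosome 11 at 65190269 to 65213011), the same length as the nuclear paraspeckle RNA gene NEAT1 in RefSeq, where the 100 bases of MIR612 lie within NEAT1. The row may thus read a long transcript, and it is not taken as a measure of the mature miRNA. MALAT1, an abundant nuclear long noncoding RNA next to it, read 15.58, 15.48 and 15.54 in T24 and 17.09, 17.11 and 17.23 in T24/THP, without overlap, and rose 3.05-fold (adjusted p = 2.93e-06). The MIR612 row was chosen after its values were seen.

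FOSL1, the FRA1 subunit of the AP-1 transcription factor, lies less than 1 Mb beyond MALAT1 and went the other way. It read 8.44, 8.81 and 8.49 in T24 and 6.13, 6.27 and 5.82 in T24/THP, without overlap, and fell 5.69-fold (adjusted p = 1.27e-05). GSTP1, a glutathione transferase that conjugates electrophiles, read 13.21, 13.31 and 13.20 in T24 and 12.09, 12.09 and 12.03 in T24/THP, and fell 2.24-fold. Around CCND1 all 16 listed genes of the 11q13 amplicon were measured and 10 were members, of which 3 fell and none of the 10 lay above 0. Over the whole long arm 18.1% of members were lower. CCND1, cyclin D1, which drives entry into S phase, read 15.92, 16.07 and 15.89 in T24 and 15.31, 15.29 and 15.10 in T24/THP. Its lines did not overlap, yet the difference of -0.73 was under 2-fold and was not called. CPT1A, which brings fatty acids into mitochondria, fell 3.44-fold. MRPL21, a protein of the mitochondrial ribosome, fell 2.50-fold, and FADD, the adaptor of death receptors, differed by -1.03 and was called. In the neighbouring list around PAK1 and EMSY, 8 of 12 measured genes were members and 0 of 8 were called, PAK1 differing by -0.67.

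From 75 to 100 Mb the called members went both ways. ACER3, an alkaline ceramidase, fell 4.35-fold, from 11.59 ± 0.35 in T24 to 9.47 ± 0.20 in T24/THP (SD, n = 3 each). CTSC, cathepsin C, which activates serine proteases of leukocytes, read 12.20, 12.40 and 12.40 in T24 and 10.53, 10.53 and 10.56 in T24/THP, and fell 3.46-fold. PCF11, a cleavage factor at the ends of messenger RNAs, rose 2.94-fold, and FZD4, a receptor for WNT and norrin, 3.51-fold, from 6.83 ± 0.28 in T24 to 8.64 ± 0.24 in T24/THP (SD, n = 3 each). SESN3, a sestrin that is induced by FOXO factors and restrains mTORC1, read 5.61, 5.56 and 5.64 in T24 and 7.31, 7.17 and 6.87 in T24/THP, and rose 2.86-fold. All its T24 arrays were just above the background bound of 5.54.

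The gene clusters from 100 to 115 Mb were mixed as well. Over the whole long arm 2.48% of members were higher and 18.1% lower. Of 9 listed genes around YAP1 and BIRC2, all measured, 7 were members, 1 rose and 1 fell. YAP1, the transcriptional coactivator held in check by the Hippo pathway, differed by -0.31 and was not called. BIRC3, an inhibitor of apoptosis induced by NF-kB, read 8.75, 8.67 and 8.76 in T24 and 9.84, 9.94 and 9.93 in T24/THP, and rose 2.26-fold, while DCUN1D5, which promotes neddylation of cullins, fell 2.35-fold. MMP13, a collagenase, was the single member of 9 measured metalloproteinases of the cluster. It read 7.59, 7.19 and 7.51 in T24 and 4.92, 5.29 and 5.42 in T24/THP, which lay in the background range. MMP13 fell at least 3.80-fold. It passed the level threshold only through its T24 arrays, so a high level in T24 was a condition of its being a member. CARD16, an inhibitor of caspase-1, was in the background range in T24 and rose at least 1.93-fold. It passed the threshold through T24/THP. CASP1 and CASP4, the inflammatory caspases beside it, differed by 0.53 and -0.34 and were not called. IL18, a cytokine that caspase-1 activates, read 8.85, 8.79 and 8.66 in T24 and 10.45, 10.40 and 10.58 in T24/THP, with no overlap, and rose 3.27-fold (adjusted p = 4.57e-06).

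ACAT1, which handles ketone bodies and isoleucine in mitochondria, fell 3.84-fold, reading 10.20, 10.29 and 10.26 in T24 and 8.43, 8.31 and 8.20 in T24/THP. DLAT, a core enzyme of pyruvate dehydrogenase, fell 3.57-fold. ATM, which signals double-strand breaks and lies close to ACAT1, differed by 0.56 (SE 0.10) and was not called. Beyond 115 Mb, CADM1, a cell adhesion molecule often silenced in carcinomas, read 9.79, 9.75 and 9.68 in T24 and 7.54, 7.63 and 7.30 in T24/THP, and fell 4.76-fold. SLC37A4, the glucose 6-phosphate carrier of the endoplasmic reticulum, fell 2.39-fold. EI24, a p53-induced membrane protein of autophagy, fell 3.07-fold, from 13.53 ± 0.15 in T24 to 11.91 ± 0.10 in T24/THP (SD, n = 3 each). NCAPD3, a subunit of condensin II near the end of the arm, read 11.85, 12.22 and 12.20 in T24 and 9.71, 9.63 and 9.41 in T24/THP, and fell 5.70-fold (adjusted p = 7.02e-06).

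By function, the share of members that fell was highest, among lists with at least 4 members, for replication, mitosis and repair. Of 34 listed genes, all measured, 32 were members, 16 fell and 0 rose. Over all 601 members 18.0% were lower and 3.83% higher, against 8.77% and 6.09% of genes with a mean of at least 5.5. The median of the list was -0.91, and 29 lay below 0. Besides RRM1, E2F8 and FEN1, POLD3, an accessory subunit of polymerase delta, fell 5.04-fold, and POLA2, the second subunit of polymerase alpha, 4.40-fold. H2AX, the histone phosphorylated at breaks, read 9.91, 10.26 and 10.74 in T24 and 8.15, 8.27 and 7.79 in T24/THP, and fell 4.71-fold. SSRP1, a subunit of the histone chaperone FACT, fell 4.35-fold, and CHEK1, the checkpoint kinase downstream of ATR, 3.41-fold, reading 9.90, 10.14 and 10.09 in T24 and 8.27, 8.19 and 8.36 in T24/THP. CDCA5, sororin, which holds sister chromatids together, fell 2.61-fold. Among members of the list that were not called, WEE1 differed by -0.67, CEP57 by -0.27 and NPAT by -0.47. An alternative added after seeing the data left out this list and the interferon list. It gave 92 members lower and 17 higher, with a median of -0.42. FAM111B and NCAPD3 are on neither list and count among the 92. The alternative thus does not leave out every gene tied to replication or mitosis.

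The interferon-stimulated members rose or were not called. Of 17 listed genes 16 were measured and 12 were members, 6 of which rose and 0 fell. Over all 601 members 3.83% were higher and 18.0% lower. Over genes with a mean of at least 5.5 these were 6.09% and 8.77%. The median of the interferon-stimulated members was 1.01, and 1 lay below 0. The 6 are IFITM1, TRIM5, IRF7, TRIM34, UBE2L6 and TRIM21. Among the others, IFITM3, IFITM2, CASP1, SLC15A3 and PLAAT4 lay between 0.53 and 0.89, and CASP4 at -0.34. PLAAT4, a phospholipase induced by interferon and retinoids, was in the background range in T24. Of the 4 inflammatory caspase and IL18 members, IL18 and CARD16 rose.

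Members for energy and translation had medians below that of all members, which was -0.42 with 18.0% called lower. The lists were not matched for level, and brighter members were lower in general. Of 19 members for mitochondrial respiration and import, 8 fell and 0 rose, all 19 were below 0, and the median was -0.83. Next to DLAT and ACAT1, COX8A, a subunit of cytochrome c oxidase, differed by -1.58, and NDUFV1, of complex I, by -1.06. Of 17 members of the cytosolic and mitochondrial ribosome and of translation factors, 6 fell and 0 rose, and the list's median was -0.94. MRPL11 of the mitochondrial ribosome fell 2.55-fold, from 7.63 ± 0.23 in T24 to 6.28 ± 0.16 in T24/THP (SD, n = 3 each). RPS13 and FAU, which encode proteins of the small cytosolic subunit, differed by -1.13 and -1.05 and were called, while RPS3 at -0.90 was not. Of 11 members for oxidant defence and glucose metabolism 4 fell, namely DLAT, SLC37A4, TALDO1 and GSTP1, and 0 rose.

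Among the other lists the share of called members varied. Over all 601 members 3.83% were higher and 18.0% lower. Of 13 lysosome and autophagy members CTSC alone fell and 0 rose. The median was -0.09, as was that of genes with a mean of at least 5.5. Of 16 growth factor, RAS and kinase members DKK3 alone rose and 0 fell (median -0.12). Of 19 ubiquitin and proteasome members 2 rose, UBE2L6 and BIRC3, and 2 fell, PSMC3 and PSMD13. Of 10 cell death regulators BIRC3 rose, and EI24, PHLDA2, API5 and FADD fell. Of 10 chaperones only STIP1, a cochaperone of HSP70 and HSP90, fell, 2.21-fold, and 0 rose. Of 10 fatty acid and sterol enzymes ACER3, ACAT1 and CPT1A fell, and 0 rose. Of 8 adhesion and tetraspanin members CADM1 and CD44 fell, with all 8 below 0. Of the long noncoding and snoRNA host genes 2 were members, MALAT1, which rose, and LINC00294, which was not called. Of 9 transcription factors FOSL1 alone was called, ETS1 differing by -0.83 and RELA by -0.27.

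**Figure D5:**
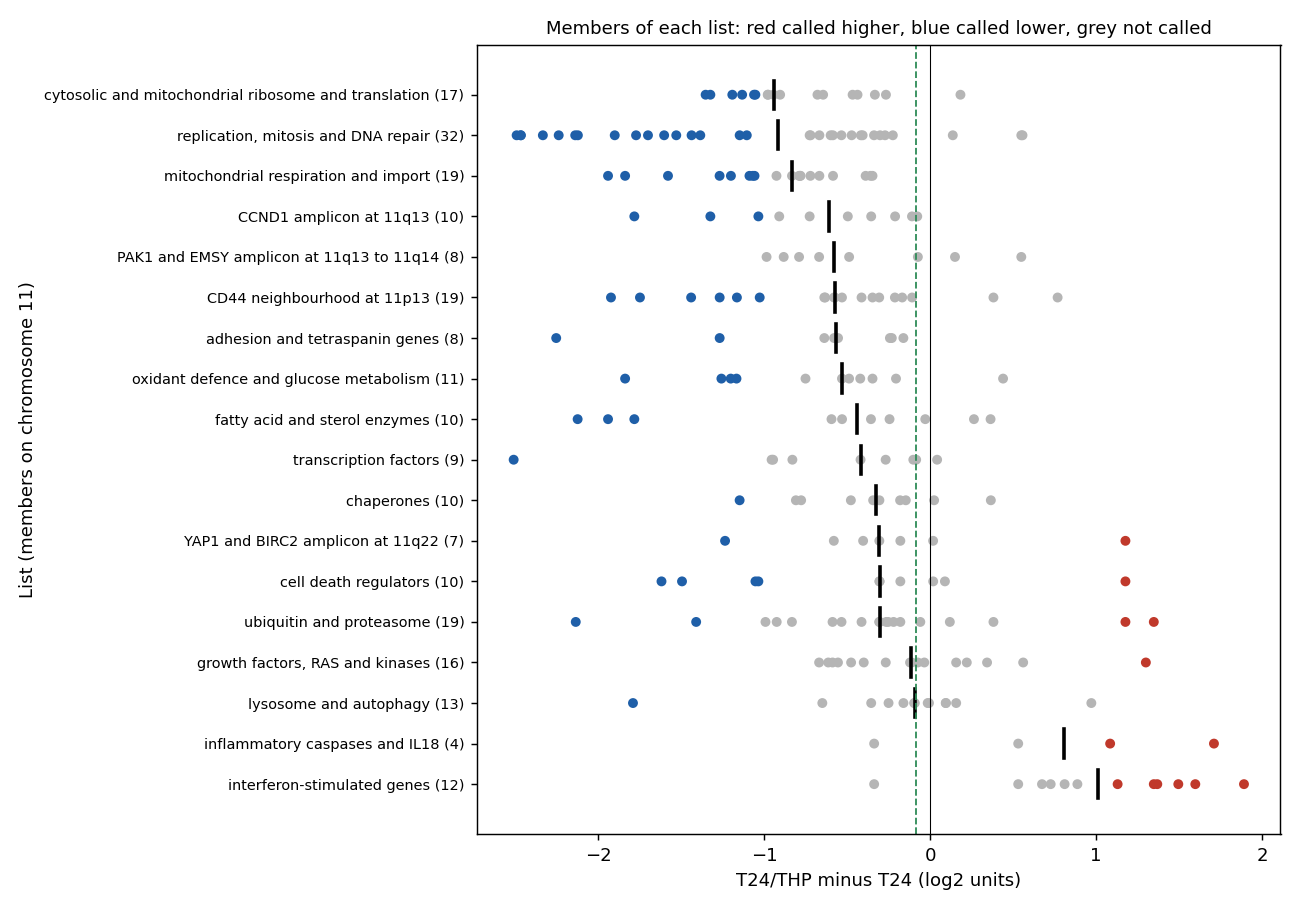
Differences (T24/THP minus T24, log2 units) of the members in each list with at least 4 members, ordered by median, with the number of members in brackets. Red points rose, blue points fell and grey points were not called, black bars are medians and the dashed line is the median of genes with a mean of at least 5.5; the interferon-stimulated and the inflammatory caspase lists have medians above 0 and every other plotted list has one under 0.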

How the data were processed

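Per the labels, the authors amplified RNA of 3 samples from T24 and 3 from T24/THP and hybridised biotin-labelled cDNA made with a whole-transcript kit (Affymetrix WT PLUS). The deposited table gives each row (a transcript cluster) 1 log2 intensity for every array. Affymetrix Expression Console is in the submitters' processing notes, with no settings. The 6 arrays had medians of 3.71 to 3.79, so the values were taken as normalized by the authors. Coordinates are GRCh37, per the deposited table. Symbols were updated through RefSeq (GRCh38.p14, names, neighbours and promoters only), and the brightest row of each gene was used, which gave 24930 genes.

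The lines were set against each other by limma (version 3.58.1, R 4.3.3) with lmFit and eBayes, two-sided, p-values being adjusted by Benjamini-Hochberg over the 24930 genes, and the fit was tested on simulated data first. Calls needed an adjusted p below 0.05 together with 1 log2 unit or more in either direction, and "rose" and "fell" are used of called genes only. A fold is 2 to the power of that difference. A line was in the background range when its mean was at or under the mean over its arrays of the brightest of 23 background probe sets, 5.54 in T24 and 5.51 in T24/THP. Folds against such a line are given as "at least". Of the tested members 9 were in this range in T24 and 19 in T24/THP. Such a member could pass the level threshold through the other line alone. The members and the 21 gene lists were chosen with earlier results of these data known, so medians and counts over them are descriptions. Text names up to 6 called genes per arm and direction, chosen among those whose arrays did not overlap between the lines. It also names up to 2 called genes per list and direction, and HRAS, CD44, CCND1, GSTP1, YAP1, ATM and IFITM3 whatever their values. Other members of the lists serve as examples, and genes outside these rules were chosen after their values were seen. Alternatives covered normalization, an offset of 32, low genes, left-out arrays, the replicate number as a block, other limma settings and the level threshold.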

Additional observations from a re-analysis of the deposited data

Results flagged for a closer look

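Rows of chromosome 11 without a gene symbol take no part in the comparisons above. Among those with a mean of at least 5.5, these 3 differed the most between the lines when a line in the background range is counted at its bound. The row TC11002453.hg.1 (chromosome 11 at 130434325 to 130628495, GRCh37, minus strand) read 8.26, 8.86 and 7.71 in T24 and 11.60, 12.07 and 11.44 in T24/THP, a difference of 3.43 log2 units. The row TC11002727.hg.1 (chromosome 11 at 65184126 to 65213011, plus strand) read 8.90, 8.73 and 8.87 in T24 and 11.96, 11.52 and 12.66 in T24/THP, a difference of 3.21. It contains the whole span of the row named MIR612. The row TC11003415.hg.1, of the same span and strand as the first, read 4.23, 4.99 and 4.20 in T24 and 7.97, 8.28 and 8.07 in T24/THP. Its T24 mean lay in the background range, so the difference is given as at least 2.58, from the bound of 5.54. The file places it antisense to C11orf44, which does not name the transcript. In all 3 rows the arrays of the 2 lines did not overlap, and none was tested, since only rows with 1 symbol entered the fit.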

How the results depend on the processing

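None of the 51 genes named by rule, nor the medians of the arms, changed sign under any alternative run. The median of the members was -0.42, and -0.36 after quantile normalization, -0.35 with the level trend removed and -0.36 with an offset of 32. The short arm median was -0.31, -0.30 and -0.35 under the same settings, and the long arm median -0.38, -0.37 and -0.36. With a level threshold of 4.5 the median was -0.34 (short arm -0.23, long arm -0.38) and stood -0.26 from that of all genes at the main threshold. With 6.5 these were -0.48 (short arm -0.43, long arm -0.49) and -0.39. The comparison genes kept the main threshold, so the change in these gaps may also reflect the change in level. Leaving out each array in turn gave medians of -0.47 to -0.39 over both arms, -0.43 to -0.36 on the short arm and -0.48 to -0.41 on the long arm. Tested against 2-fold itself, 14 members were higher and 50 lower, 8 and 14 on the short arm and 6 and 36 on the long arm, and 12 named genes lost their calls, CD44 and GSTP1 among them. At any size 66 were higher and 375 lower, 29 and 113 on the short arm and 37 and 262 on the long arm. Without the replication and interferon lists 8 short arm members were higher. The replicate numbers did not pair the samples, since same-numbered deviations correlated by 0.040, 0.151 and 0.019 and not every array correlated best with its own number, and with the replicate block the counts were 23 higher and 108 lower. GSTP1 and STIP1 lost their calls with the level trend removed, and CARD16 and SLC37A4 with the offset. Differences of rows within the background range of a line are bounds at most.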
